A study of Mus musculus with 7 samples.

Results

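The lymphocytes, neutrophils and dendritic cells of the developing mouse heart were the 332 cells that carried 1 of these labels in the deposited final annotation, of 52802 cells from wild-type hearts. In the CD1 strain, 140 of 27445 cells were members, with 45 T cells, 33 B cells, 23 natural killer cells, 22 neutrophils and 17 dendritic cells. In the C57BL/6 strain, 192 of 25357 cells were members, with 175 neutrophils and 17 dendritic cells, and no cell of that strain carried a lymphocyte label. Members made up 11.9% of the 1173 immune cells of CD1 (exact 95% binomial interval 10.1 to 13.9%), and the other 1033 were macrophages. In C57BL/6 the 192 members stood beside 1163 macrophages. Every such interval covers counting error only.

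Hearts of untreated wild-type mice were divided by zone into the atria of the left (LA) and right side (RA) and the ventricles of the left (LV) and right side (RV), and each stage and zone was given a MULTI-seq DNA barcode before the cells were pooled for droplet RNA-seq. CD1 hearts covered 18 stages from embryonic day 9.5 (E9.5) to postnatal day 9 (P9), of which 10 were embryonic (E9.5 to E17.5 and E18) and 8 postnatal (P0 to P5, P7 and P9). C57BL/6 hearts covered 17 stages, of which 9 were embryonic (E10.5 to E18.5) and 8 postnatal (P1 to P5 and P7 to P9). The CD1 cells came from 3 pools (E9.5 to P3, E18 with P1, and P2 to P9) in 7 libraries, and the C57BL/6 cells from 2 pools (E10.5 to P4 and P5 to P9) in 5 libraries. Several hearts were combined for each stage, so a stage is 1 sample, the spread between stages stands in for error, and single animals cannot be told apart. Per the study's methods, the atrioventricular canal and septum went with the LV, postnatal samples were pipetted vigorously and postnatal ventricles passed an extra strainer.

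Lymphocytes recognise antigen through rearranged receptors (T and B cells) or kill stressed cells without them (natural killer cells). Neutrophils are short-lived phagocytes released from the bone marrow, and from the liver before birth. Dendritic cells take up antigen and present it to T cells. In the fetal heart most immune cells are macrophages, which seed the tissue from the yolk sac and fetal liver.

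No gene values were used, so the labels could not be checked against the markers that the study named for them, such as Cd3e, a subunit of the T cell receptor complex, Cd79a, a part of the B cell receptor, and S100a8, a calcium-binding protein of neutrophil granules. The labels could be compared with an earlier annotation column. Every immune sub-cluster of members carried a single earlier name and a single final label. All-or-none agreement therefore followed from naming whole sub-clusters and is no check cell by cell. That column called all 33 B cells B cells and all 22 CD1 neutrophils and 175 C57BL/6 neutrophils neutrophils. It called all 45 T cells unsure B cells, all 23 natural killer cells unsure neutrophils and all 17 CD1 dendritic cells unsure macrophages. The 17 C57BL/6 dendritic cells were among 130 immune cells called unsure, and the other 113 ended as macrophages. Names of T cells, natural killer cells and dendritic cells therefore rest on the last annotation step alone.

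The clusters of the whole data set did not separate the labels one by one. In CD1, cluster 25 held 45 of 45 T cells, 32 of 33 B cells, 1 neutrophil and 13 macrophages. Cluster 26 held 22 of 23 natural killer cells and 16 of 22 neutrophils and no macrophage. All 17 CD1 dendritic cells lay in cluster 8, which held 1020 of 1033 macrophages. In C57BL/6, cluster 22 held 134 of 175 neutrophils, 15 of 17 dendritic cells and 78 macrophages, and the remaining 41 neutrophils lay in cluster 9 with 1085 macrophages.

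Across the 5 pools the median cell had between 9176 and 20279 UMIs, and the median of each member label over all pools lay below that range. The 7 CD1 neutrophils of the E9.5 to P3 pool were an exception within a pool, with a median of 19198 UMIs beside 14966 for all its cells. Cell barcodes recurred in 2 or more of the 12 libraries for 322 of 52477 distinct barcodes, which included 5 member cells, and no barcode was shared by members of 2 libraries.

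The T cell label was given from the earliest stage to the last, and the label itself could not be checked at the embryonic stages. The 18 embryonic T cells fell on 8 of 10 embryonic stages, with 3 at E9.5, 3 at E11.5, 4 at E12.5, 2 at E13.5, 2 at E15.5, 1 at E16.5, 2 at E17.5 and 1 at E18. At E9.5 the cells with this label were the only immune cells, 3 of 3 among 887 cells, and the first cell labelled macrophage was at E10.5. The 18 cells labelled T cells before birth were also most of the 22 embryonic cells counted as lymphocytes. Embryonic lymphocyte shares therefore rest largely on a label that could not be checked. The 27 postnatal T cells numbered 12 at P9, and between 0 and 5 at each of the other 7 stages. At P9 they were 21.8% of 55 immune cells (interval 11.8 to 35.0%), above the 0 to 4.84% of the other postnatal stages. Among the stages with at least 10 immune cells the embryonic share ran from 0 to 23.1%, and that highest value, at E11.5, rested on 3 of 13 immune cells (interval 5.04 to 53.8%).

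The cells labelled T cells before birth differed from those after birth in quality measures, and were not uniform among themselves. Their median doublet score was 0.108 (n = 18 cells) beside 0.0232 (n = 27) after birth, and their median UMI count 9166 beside 6030. Pool moved with this contrast. The E9.5 to P3 pool gave every embryonic T cell but the 1 at E18. The P2 to P9 pool, which held no embryonic stage, gave 23 of the 27 postnatal ones. Period and pool can therefore hardly be told apart here. The median doublet score of all cells was 0.197 in the E9.5 to P3 pool and 0.208 in the P2 to P9 pool. The part of these measures in the label was not tested. In 7 of 18, under 10% of the UMIs came from ribosomal protein genes, with a range of 0.231 to 2.58%, and their mitochondrial percent was 0.402 to 1.55%. These 7 cells were 4 from the RV at E12.5, 1 from the RV at E13.5, 1 from the RV at E15.5 and 1 from the LV at E16.5. The other 11 had 10.8 to 26.1% ribosomal UMIs and up to 64431 UMIs. None of the 27 postnatal T cells was under 10%, which allows a share of up to 11.1%, and their ribosomal percent ran from 18.9 to 43.3% with a median of 37.5%. The 3 cells at E9.5 belonged to the higher class, with 11.0, 18.3 and 19.6% ribosomal UMIs, and 3 of the 4 at E12.5 came from 1 of the 5 libraries of their pool. The groups overlapped only among the higher cells, since the embryonic maximum of 26.1% lay above the postnatal minimum of 18.9%.

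B cells were nearly all postnatal. There was 1 at E18, in 50 immune cells, and there were 32 after birth at 6 of 8 stages, with 6 at P1, 7 at P2, 3 at P3, 5 at P4, 1 at P5 and 10 at P9. No B cell was found among the 416 immune cells of earlier stages, which allows a share of up to 0.721%. P9 again stood highest, at 18.2% of 55 immune cells (interval 9.08 to 30.9%), and P1 came next at 6.38% of 94 (interval 2.38 to 13.4%). These 2 intervals overlap. P0 and P7 had no B cell in 94 and 62 immune cells, which allows shares of up to 3.19% and 4.84%.

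Natural killer cells appeared late in gestation and stayed at a low level. There was 1 at E17.5 and there were 2 at E18, and 0 of 291 immune cells before E17.5 carried the label, which allows up to 1.03%. After birth there were 20 cells at 7 of 8 stages, with 1 at P0, 4 at P1, 4 at P2, 3 at P3, 3 at P4, 2 at P7 and 3 at P9. Their postnatal share ran from 0 to 5.45% of immune cells, the highest at P9, with a median of 3.23%.

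**Figure D1:**
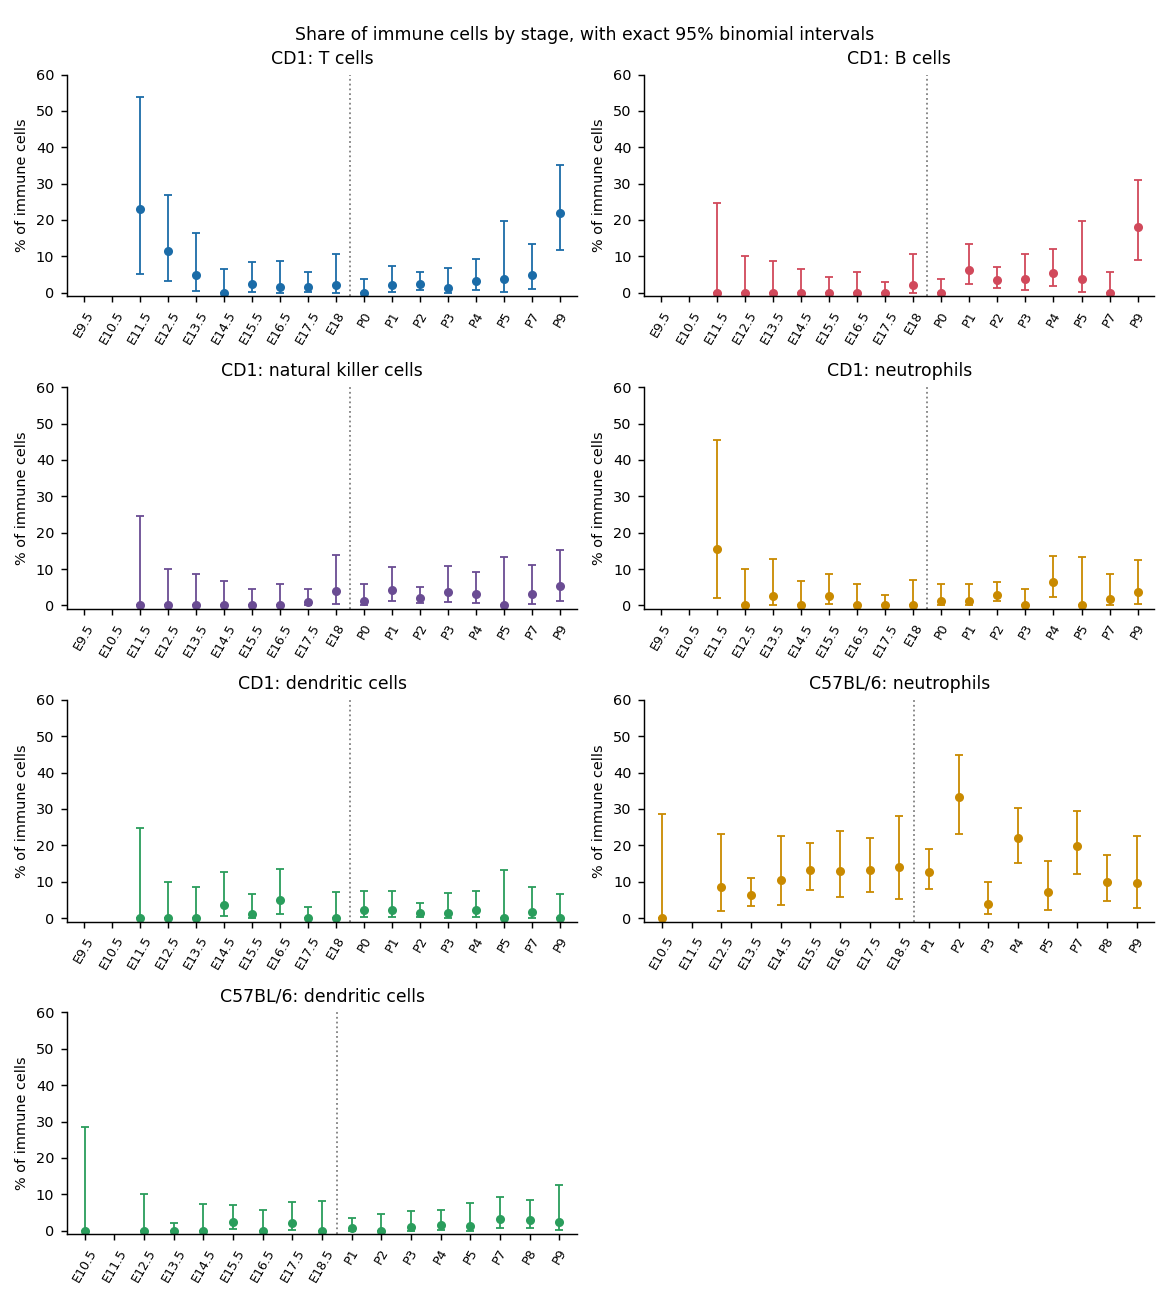
Percent of the immune cells of each stage that carried each label, in CD1 (5 panels) and C57BL/6 (2 panels). Points are stages with at least 10 immune cells, bars are exact 95% binomial intervals and the dotted line marks birth. CD1 T and B cells are highest after birth at P9 (21.8 and 18.2%), and C57BL/6 neutrophils are present at every stage from E12.5.

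CD1 neutrophils were few, and their timing split with the pool. The E9.5 to P3 pool gave 2 at E11.5, 1 at E13.5, 2 at E15.5, 1 at P0 and 1 at P1, and the P2 to P9 pool gave 6 at P2, 6 at P4, 1 at P7 and 2 at P9. The share of immune cells ran from 0 to 15.4% over embryonic stages, the highest being 2 of 13 at E11.5 (interval 1.92 to 45.4%), and from 0 to 6.45% over postnatal stages. The 7 cells of the first pool had 4498 to 34561 UMIs and 5.85 to 17.0% ribosomal UMIs. The 15 cells of the P2 to P9 pool had 2487 to 3723 UMIs and 3.30 to 5.29% ribosomal UMIs. The UMI counts of the 2 pools did not overlap, and neither did their ribosomal percents. All 15 cells of the P2 to P9 pool lay in whole-data cluster 26, and 5 of the 7 others lay in the macrophage cluster 8. Stage and pool cannot be told apart in this contrast, apart from P2, at which the E9.5 to P3 pool had 0 neutrophils in 39 immune cells, which allows up to 7.69%, and the P2 to P9 pool had 6 in 165 (3.64%, interval 1.35 to 7.75%).

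C57BL/6 neutrophils were present at 15 of 17 stages. They were 0 of 17 immune cells at E10.5 and E11.5 together, which allows up to 17.6%, and then 3 at E12.5, 11 at E13.5, 5 at E14.5, 16 at E15.5, 8 at E16.5, 12 at E17.5 and 6 at E18.5. After birth they numbered 20 at P1, 26 at P2, 4 at P3, 27 at P4, 5 at P5, 18 at P7, 10 at P8 and 4 at P9. The highest embryonic share of immune cells was 14.0%, at E18.5, while the postnatal share varied from 3.96% at P3 (interval 1.09 to 9.83%) to 33.3% at P2 (interval 23.1 to 44.9%). P2 and P3 came from the same pool and libraries, and their intervals over all zones do not overlap. Their mix of zones differed, with 26 atrial and 52 ventricular immune cells at P2 and 79 and 22 at P3. Within the ventricles the intervals of P2 and P3 overlapped (27.0 to 54.9% and 2.91 to 34.9%). Within the atria they overlapped narrowly (6.55 to 39.4% and 0.0320 to 6.85%). The 5 libraries were alike, with 11.1 to 14.3% neutrophils among their immune cells.

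The 175 C57BL/6 neutrophils joined 2 sub-clusters of the immune cells that differed in quality measures. Sub-cluster 4 held 96 cells with a median of 19.4% ribosomal and 3.03% mitochondrial UMIs and a median of 5540 UMIs, and none of them was among the 10% of cells with the highest doublet scores, which allows up to 3.13%. Sub-cluster 7 held 79 cells with a median of 12.9% ribosomal and 4.69% mitochondrial UMIs, and 18 of them (22.8%, interval 14.1 to 33.6%) were among those doublet scores. The macrophages of the same strain had 6 of 1163 there (0.516%, interval 0.190 to 1.12%). Sub-cluster 7 held the 3 cells of E12.5, 9 of 11 at E13.5 and all 4 at P9, and sub-cluster 4 held all 6 cells of E18.5 and all 4 of P3. These measures describe cells that were clustered on expression, so no test was made between the sub-clusters.

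Dendritic cells were the rarest label in both strains. In CD1 the first were 2 at E14.5, followed by 1 at E15.5, 3 at E16.5, 2 at P0, 2 at P1, 3 at P2, 1 at P3, 2 at P4 and 1 at P7. In C57BL/6 the first were 3 at E15.5, followed by 2 at E17.5, 1 at P1, 1 at P3, 2 at P4, 1 at P5, 3 at P7, 3 at P8 and 1 at P9. Earlier stages had 0 of 93 immune cells in CD1 and 0 of 275 in C57BL/6, which allows shares of up to 3.23% and 1.09%. Where stages had at least 10 immune cells, the share reached 4.84% in CD1 at E16.5 and 3.30% in C57BL/6 at P7, and no stage stood clear of the others by its interval.

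Whether the labels took a larger share of immune cells after birth was tested over the stages with at least 10 immune cells, 8 embryonic and 8 postnatal in each strain, with a two-sided exact permutation test and Benjamini-Hochberg adjustment over 8 labels. None of the 8 passed the 0.05 threshold after adjustment. B cells came nearest, at 0.250% ± 0.707 (SD, n = 8 stages) before birth and 5.13% ± 5.74 (n = 8) after, a difference of 4.88 percentage points (exact permutation p = 0.00699, adjusted p = 0.0559). Natural killer cells were at 0.600% ± 1.40 and 2.87% ± 1.77, a difference of 2.27 points (exact permutation p = 0.0143, adjusted p = 0.0572). T cells differed by -0.933 points, CD1 neutrophils by -0.437, CD1 dendritic cells by 0.124, C57BL/6 neutrophils by 4.92 and C57BL/6 dendritic cells by 1.07, with adjusted exact permutation p-values from 0.218 to 0.933. Within the E9.5 to P3 pool alone, with 7 embryonic and 4 postnatal stages, the differences were 0.949 points for B cells and 2.49 for natural killer cells, with adjusted exact permutation p-values of 0.582 and 0.194. Leaving out E18, P0 or P5 brought the B and natural killer cell differences past the threshold, and leaving out P7 did so for B cells.

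Among all cells the labels were more frequent after birth. Averaged over zones, CD1 lymphocytes were 0.181% ± 0.207 of cells (SD, n = 10 embryonic stages) and 2.31% ± 1.85 (n = 8 postnatal stages), and the embryonic stages ran from 0 to 0.649% and the postnatal ones from 0.118 to 6.48%, so the ranges overlapped. The difference was 2.12 points (exact permutation p = 0.000137, adjusted p = 0.00101). T cells differed by 0.738 points, B cells by 0.914 and natural killer cells by 0.472 (adjusted exact permutation p = 0.00603, 0.00402 and 0.00101). CD1 neutrophils differed by 0.346 points, CD1 dendritic cells by 0.0907 and C57BL/6 neutrophils by 1.58 (adjusted exact permutation p = 0.0285, 0.0462 and 0.0285), while the 0.123 points of C57BL/6 dendritic cells did not pass (adjusted exact permutation p = 0.134). The neutrophil and dendritic cell calls lay near the threshold, and each was lost in several of the runs that left out 1 stage. These were 7 of 18 runs for CD1 neutrophils (adjusted exact permutation p up to 0.0619) and 11 of 18 for CD1 dendritic cells (up to 0.110). For C57BL/6 neutrophils they were 4 of 17 (up to 0.0620). Some of the stages left out in these runs held no such cell. The lymphocyte calls passed with each stage left out in turn. Macrophages moved the same way, from 2.60% ± 2.33 to 8.65% ± 2.93 in CD1, while cardiomyocytes fell from 61.4% ± 10.53 to 22.4% ± 15.8 of the recovered cells. More cells of a type and fewer of the others cannot be told apart in such shares.

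The postnatal stages of CD1 came mostly from another pool than the embryonic ones, and the calls rested on it. Without the P2 to P9 pool the CD1 lymphocyte difference was 0.679 points with 10 embryonic and 4 postnatal stages (adjusted exact permutation p = 0.0826), T cells stood at 0.0306, B cells at 0.280 and natural killer cells at 0.369 points, and the neutrophil difference was -0.0283 points. Within the E9.5 to P3 pool alone the values were 0.871 for lymphocytes, 0.126 for T cells, 0.186 for B cells and 0.560 for natural killer cells, with adjusted exact permutation p-values from 0.0746 to 0.352. With cardiomyocytes and blood cells left out of the total, T cells, dendritic cells and the neutrophils of both strains no longer passed, while B cells and natural killer cells did. Requiring at least 4000 UMIs and at most 20% mitochondrial UMIs removed 15 of 17 postnatal and 0 of 5 embryonic CD1 neutrophils, and the CD1 neutrophil difference became -0.0448 points.

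The P1 and P2 hearts of CD1 were profiled in 2 pools each, which gives a check on the counts. At P1 the E18 with P1 pool had 6 B cells in 40 immune cells (15.0%, interval 5.71 to 29.8%), and the E9.5 to P3 pool had 0 in 54, which allows up to 5.56%. At P2 the P2 to P9 pool had 7 B cells in 165 immune cells (4.24%, interval 1.72 to 8.55%), and the E9.5 to P3 pool had 0 in 39, which allows up to 7.69%. In the same order of pools, T cells were 1 of 40 and 1 of 54 at P1 and 4 of 165 and 1 of 39 at P2, with interval ends of up to 13.48%. Natural killer cells were 1 of 40 and 3 of 54 at P1 and 4 of 165 and 0 of 39 at P2. At both stages all B cells came from the pool other than E9.5 to P3. No test was made between the pools of a stage, and the counts are few. With the exact binomial interval in place of the limit of 3 counts, the 0 in 54 at P1 had 0 to 6.60%. It overlapped narrowly with the 5.71 to 29.8% of the other pool.

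Lymphocytes were mostly ventricular. Of 101 CD1 lymphocytes, 51 were from the LV, 37 from the RV, 10 from the RA and 3 from the LA, although the atria gave 674 of the 1173 immune cells. They made up 17.4% of immune cells in the LV (interval 13.2 to 22.2%), 17.96% in the RV (13.0 to 23.9%), 2.49% in the RA (1.20 to 4.53%) and 1.10% in the LA (0.228 to 3.19%). The intervals of the LV and RV overlapped, as did those of the RA and LA, and neither atrial interval reached a ventricular one. Natural killer cells were 16, 6, 1 and 0 in the LV, RV, RA and LA, T cells 18, 20, 5 and 2, and B cells 17, 11, 4 and 1. The 0 of 272 in the LA allows up to 1.10% natural killer cells. Among all cells, lymphocytes were 0.538% of the ventricular and 0.117% of the atrial ones, and macrophages 2.37% and 5.82%.

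**Figure D2:**
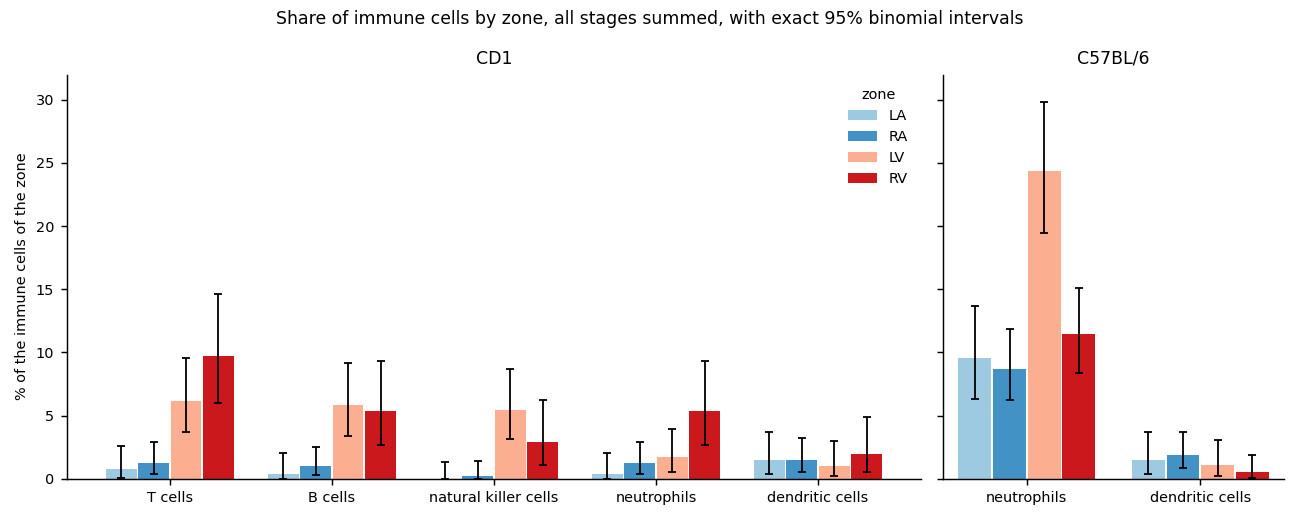
Percent of the immune cells of each zone that carried each label, all stages summed, with exact 95% binomial intervals as bars. T, B and natural killer cells of CD1 are low in LA and RA and higher in LV and RV, CD1 dendritic cells range only from 1.02 to 1.94%, and C57BL/6 neutrophils are highest in the LV at 24.4%.

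Atria and ventricles were compared stage by stage over the 12 CD1 stages and 11 C57BL/6 stages that had at least 10 immune cells in each, with a two-sided exact sign-flip permutation test. The lymphocyte share was 2.13% ± 3.04 in atria and 17.0% ± 16.4 in ventricles (SD, n = 12 stages), with ventricular values from 0 to 58.5% and a median of 13.3%. It was higher in the ventricles at 10 stages, lower at 1 and equal at 1, a difference of 14.9 points (exact permutation p = 0.00195, adjusted p = 0.0156). Natural killer cells differed by 5.35 points and were higher in the ventricles at 9 stages and lower at none (adjusted exact permutation p = 0.0156). T cells differed by 5.14 points, higher at 9 stages and lower at 1 (adjusted exact permutation p = 0.0365), and B cells by 4.42 points without passing (adjusted p = 0.116). The natural killer and lymphocyte calls passed with each stage left out in turn. They were lost with at least 20 immune cells (4.85 and 11.9 points, both adjusted exact permutation p = 0.0625), without the P2 to P9 pool (3.79 and 7.86 points, both 0.167) and without the E9.5 to P3 pool (7.12 and 23.3 points over 6 stages, both 0.143), with the direction unchanged. In addition, the T cell call was lost when any 1 of 9 stages was left out (E15.5, E16.5, E17.5, P1 to P4, P7 or P9), with adjusted exact permutation p-values up to 0.0729.

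Neither neutrophils nor dendritic cells passed the test between atria and ventricles. C57BL/6 neutrophils were 10.8% ± 7.16 of atrial and 21.98% ± 13.8 of ventricular immune cells (SD, n = 11 stages), higher in the ventricles at 9 and lower at 2 (difference 11.2 points, exact permutation p = 0.0361, adjusted p = 0.0723). The ventricular share reached 53.5% at P4, with 23 of 43 immune cells. At E18.5 the atrial share was 22.7% (5 of 22) and the ventricular share 4.76% (1 of 21), and without that stage the difference was 14.1 points (adjusted exact permutation p = 0.0156). CD1 neutrophils differed by 2.05 points (adjusted p = 0.100), CD1 dendritic cells by 0.200 (adjusted p = 0.828) and C57BL/6 dendritic cells by -0.831 (adjusted p = 0.116), all by the same exact permutation test. C57BL/6 dendritic cells were lower in the ventricles at 6 of the 11 stages compared, all postnatal, and higher at 2, both embryonic.

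The ventricular excess was larger in the summed postnatal than in the summed embryonic cells. In postnatal CD1 hearts 71 of 253 ventricular immune cells were lymphocytes (28.1%, interval 22.6 to 34.0%) against 8 of 454 atrial ones (1.76%, interval 0.764 to 3.44%). In embryonic hearts these were 17 of 246 (6.91%, interval 4.08 to 10.8%) and 5 of 220 (2.27%, interval 0.742 to 5.22%). As a share of all embryonic CD1 cells, lymphocytes were 0.118% in ventricles and 0.0896% in atria, beside 1.53% and 3.80% macrophages. After birth these lymphocyte shares were 3.67% and 0.145%, beside 8.64% and 7.86% macrophages. C57BL/6 neutrophils were 75 of 253 postnatal ventricular immune cells (29.6%) and 39 of 512 atrial ones (7.62%), but 37 of 406 embryonic ventricular (9.11%) and 24 of 184 embryonic atrial (13.0%). The extra strainer for postnatal ventricles moved with this split, and its part in the result was not tested. Within the E9.5 to P3 pool alone the ventricular excess was 9.09 points for lymphocytes, 2.60 for T cells and 5.11 for natural killer cells over 8 stages, with adjusted exact permutation p-values of 0.145, 0.200 and 0.200.

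**Figure D3:**
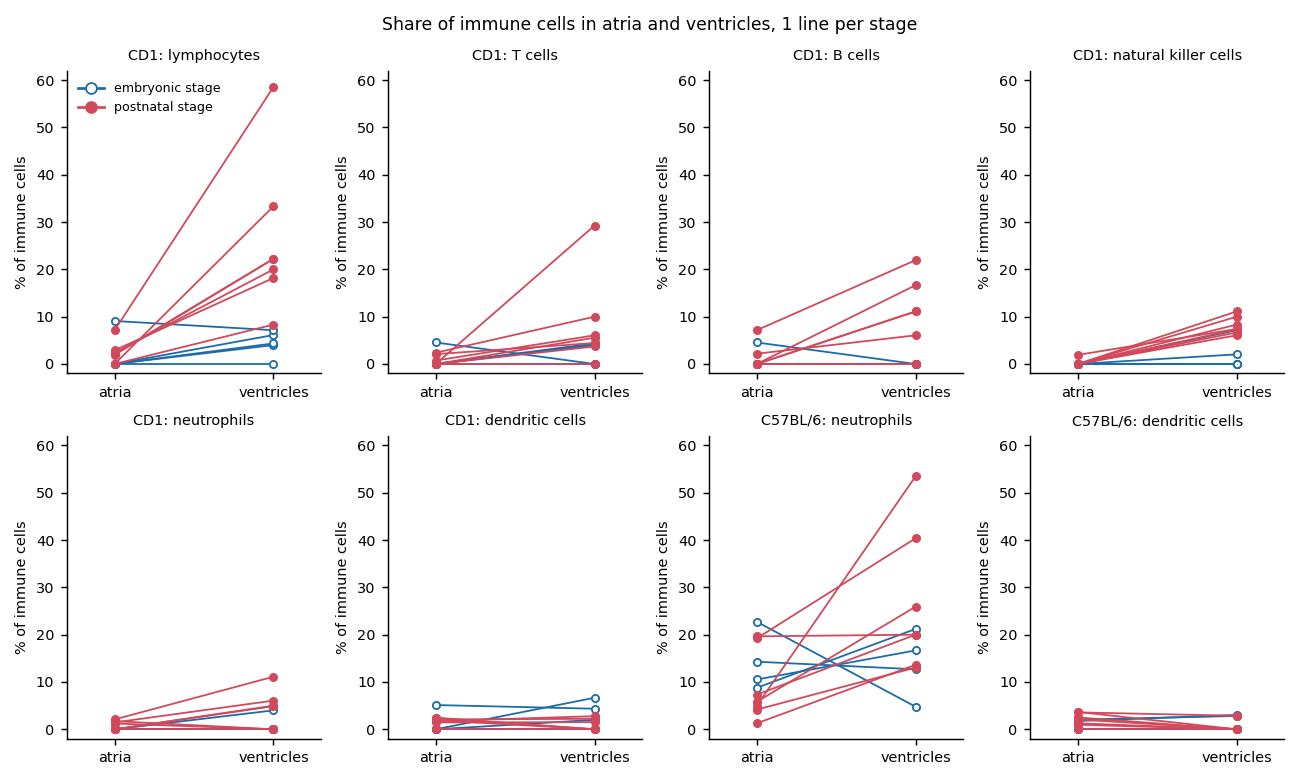
Percent of immune cells with each label in atria (LA and RA) and ventricles (LV and RV), 1 line per stage with at least 10 immune cells in both. Open blue points are embryonic and filled red points postnatal stages. Lines for CD1 lymphocytes rise to ventricular values of up to 58.5%, and those for dendritic cells reach at most 6.67%.

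Neutrophils were a larger share of immune cells in C57BL/6 than in CD1 at each of the 14 matched stages (E18 in CD1 was set beside E18.5). They ran from 0 to 6.45% in CD1 with a median of 0.532%, and from 3.96 to 33.3% in C57BL/6 with a median of 12.8%. The mean difference was 11.9 points (two-sided exact sign-flip permutation p = 0.000122, the smallest that 14 stages allow, adjusted over 2 labels p = 0.000244). Dendritic cells differed by -0.238 points, higher in C57BL/6 at 5 stages and lower at 6 (adjusted exact permutation p = 0.682). The C57BL/6 table held no lymphocyte label, and whether such cells carried another label there was not tested. All members together were 11.9% of immune cells in CD1 and 14.2% in C57BL/6 (intervals 10.1 to 13.9% and 12.4 to 16.1%), which overlap, beside 1.88% and 12.9% for neutrophils alone. Strain and pool cannot be told apart, because each pool held 1 strain. The deposited clusters and labels were numbered and given separately for each strain. The final labels also came from differently named columns, markFinal in CD1 and markFinalGeneThresh in C57BL/6.

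The ribosomal percent of the cells labelled neutrophils also differed between the strains, and with them between the pools. In CD1, 20 of 22 neutrophils (90.9%, interval 70.8 to 98.9%) had under 10% ribosomal UMIs, but in C57BL/6 only 32 of 175 did (18.3%, interval 12.9 to 24.8%). The median ribosomal percent was 4.50 in CD1 and 17.8 in C57BL/6, beside 17.8 and 18.96 in the macrophages of the same strains. Within 1 label and strain the ribosomal percent moved with the pool too, with medians of 5.71 in the 8 CD1 natural killer cells of the E9.5 to P3 pool and 2.68 in the 12 of the P2 to P9 pool. With sub-cluster 4 or sub-cluster 7 alone as the C57BL/6 neutrophils, an alternative chosen after seeing the data, the difference between strains was 6.19 or 4.23 points (adjusted exact permutation p = 0.00293 and 0.000977). Counting only neutrophils under 10% ribosomal UMIs in both strains, also chosen after seeing the data, left a difference of 0.773 points. That was the lowest of the 13 alternatives other than single stages left out. Over these 13, adjusted exact permutation p-values ran up to 0.463, so the difference did not pass under all of them.

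**Figure D4:**
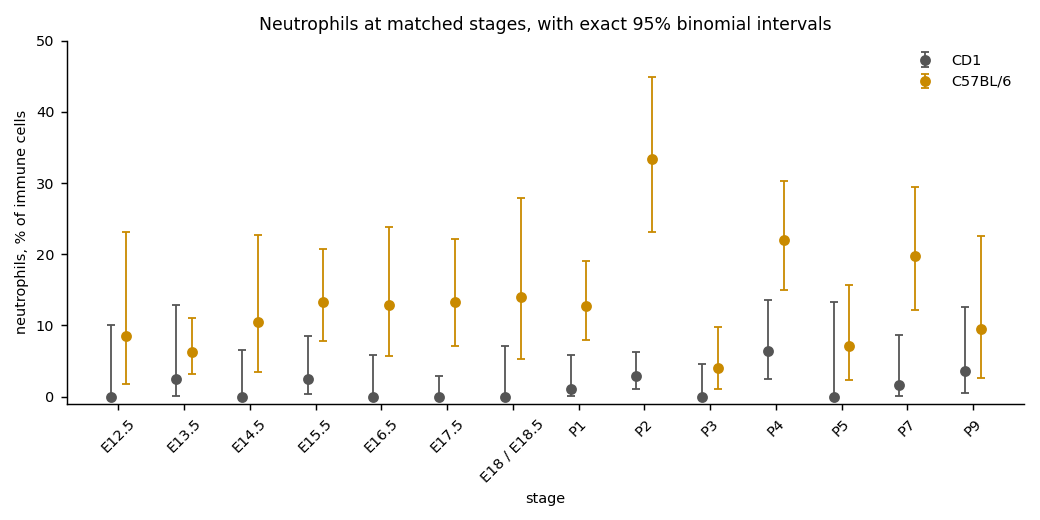
Neutrophils as percent of immune cells at the 14 matched stages in CD1 (grey) and C57BL/6 (gold), with exact 95% binomial intervals as bars. The C57BL/6 value is the higher of the pair at each stage, and it varies most after birth, from 3.96% at P3 to 33.3% at P2.

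The labels also differed in the amount and kind of RNA per cell, which is described without a test because the labels were made from the same transcripts. In CD1 the median UMI count was 3237 in neutrophils, 3689 in B cells, 5227 in natural killer cells, 6523 in T cells and 7065 in dendritic cells, beside 8340 in macrophages. Detected genes followed the depth, with medians of 1179, 1487, 1429, 1935 and 2160 beside 2587. Natural killer cells had a higher UMI count than B cells but fewer detected genes. In the window of 2500 to 5000 UMIs, the medians were 1154 genes in 15 neutrophils, 1188 in 8 natural killer cells, 1332 in 11 T cells, 1457 in 16 B cells and 1594 in 152 macrophages. The window did not make the depth equal, since the median UMI count in it was 3001 in neutrophils, 3584 in B cells, 3811 in T cells, 3928 in macrophages and 3981 in natural killer cells. Natural killer cells had fewer genes than macrophages at a similar UMI count.

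Natural killer cells and CD1 neutrophils shared a low ribosomal content. Natural killer cells had a median of 3.60% ribosomal and 1.03% mitochondrial UMIs, and 21 of 23 were under 10% ribosomal. T cells, B cells and dendritic cells had medians of 30.3, 23.6 and 23.2%, above the 17.8% of macrophages. In macrophages 33 of 1033 cells were under 10% (3.19%, interval 2.21 to 4.46%). C57BL/6 dendritic cells had 27.0% ribosomal and 2.45% mitochondrial UMIs and a median of 8760 UMIs, close to the 8716 of macrophages. No lymphocyte was among the 10% of CD1 cells with the highest doublet scores, which allows up to 2.97%, and 1 of 22 CD1 neutrophils was.

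**Figure D5:**
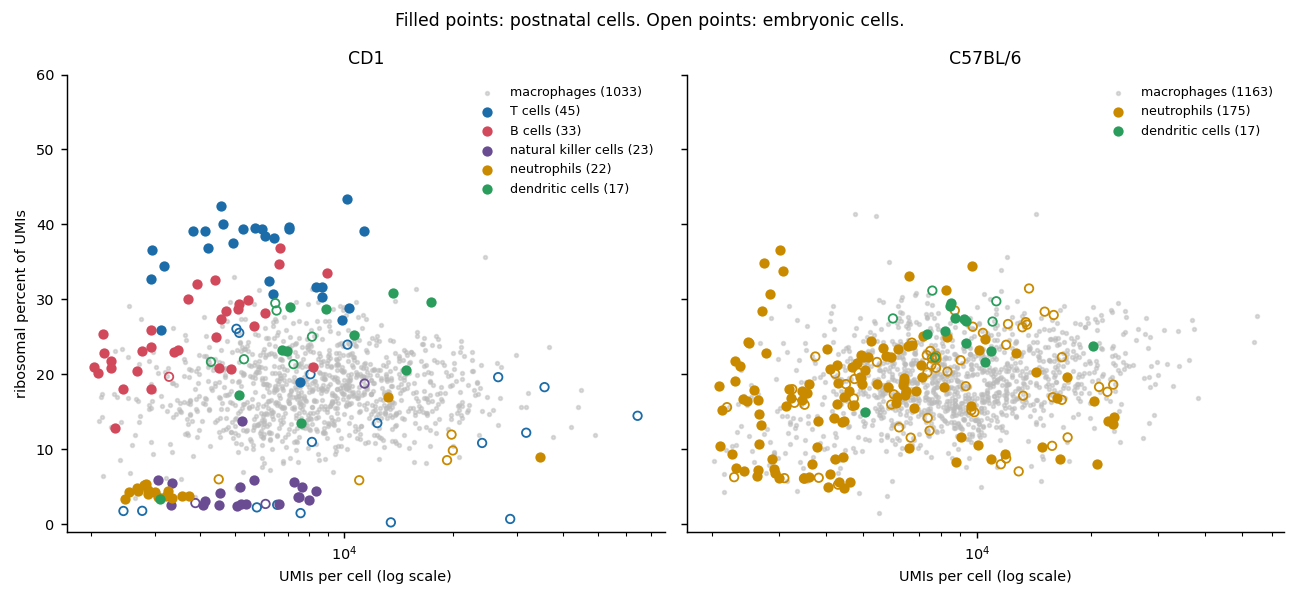
UMIs per cell (log scale) against the percent of UMIs from ribosomal protein genes for each member cell, in CD1 and C57BL/6, with macrophages in grey. Filled points are postnatal and open points embryonic cells. Of the natural killer cells 21 of 23 lie under 10%, as do 20 of 22 CD1 neutrophils and 7 open T cell points, and C57BL/6 neutrophils spread from 4.83 to 36.6%.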

How the data were processed

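Single cells of CD1 and C57BL/6 hearts were profiled by the authors with 10x 3′ RNA-seq. Per the submitters' processing notes, Cell Ranger 3.1.0, the GRCm38.p4 build and Seurat were used, and the authors kept singlets by sample barcode, filtered by UMI count, detected genes and mitochondrial percent, removed doublets and corrected batches before clustering. The deposited tables give 1 row per cell with the authors' UMI count and detected gene count, the deposited mitochondrial and ribosomal percent of UMIs, the authors' doublet score, clusters and labels. No gene values were used here, so the labels could not be checked against markers. Of 256 columns in 4 tables, 228 were not used, including all columns of the Wt1 and Tbx18 mutant tables. The 79 C57BL/6 cells marked for exclusion were left out.

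Members were the cells with a final T, B, natural killer, neutrophil or dendritic cell label. The members and lists were chosen with earlier results of these data known. Genes were named only as markers of a label.

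Shares were taken per stage among immune cells (stages with at least 10) or among all cells (mean of zones). Stages were compared with two-sided exact permutation tests, stage pairs with exact sign-flip permutation tests, at a threshold of 0.05 after Benjamini-Hochberg adjustment over 8 labels (2 between strains). Each stage is 1 sample of pooled hearts, so p-values measure the spread between stages, which also differ in age. Each 95% interval is binomial and exact by the Clopper-Pearson method, and where no cell was found the upper limit was set at 3 counts. Both cover counting error only. The tests were checked on simulated data. Alternatives were stricter cell filters, other minimum immune cell numbers, other averaging and denominators, and pools or stages left out. Analyses ran in Python 3.11.15 with NumPy 2.4.6, pandas 2.3.3, SciPy 1.17.1 and Matplotlib 3.10.9.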

Additional observations from a re-analysis of the deposited data

Results flagged for a closer look

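Among 32 groups of 4 to 10 stages, 13 held a stage whose gap to its nearest neighbour exceeded Dixon's 95% limit, where chance alone gives about 1 in 20 groups. The groups share stages and labels, so they are not independent, and groups with many stages at 0 pass easily. Of the shares of immune cells, CD1 P9 stood highest after birth for lymphocytes (45.5%, next P1 at 12.8%), T cells (21.8%, next P7 at 4.84%) and B cells (18.2%, next P1 at 6.38%). E18 stood highest before birth for B cells (2%, all other stages at 0) and natural killer cells (4%, next E17.5 at 0.800%), and E11.5 for CD1 neutrophils (15.4%, next E15.5 at 2.44%).

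Of the shares of all cells, P9 stood highest after birth for lymphocytes (6.48%, next P5 at 2.64%) and T cells (3.59%, next P7 at 1.04%). Before birth the separate stages were E18 for B cells (0.313%), E17.5 for natural killer cells (0.0521%), E13.5 for CD1 neutrophils (0.403%), E16.5 for CD1 dendritic cells (0.208%) and E15.5 for C57BL/6 dendritic cells (0.266%). The embryonic values each rested on 1 to 3 cells.

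The ventricular minus atrial difference also differed between postnatal and embryonic stages in 3 of 8 labels, a comparison chosen after seeing the data. For CD1 lymphocytes it was 2.50 points ± 3.35 (SD, n = 5 stages) before birth and 23.8 ± 14.3 (n = 7) after, a difference of 21.3 points (exact permutation p = 0.00631, adjusted p = 0.0253). For natural killer cells the difference was 6.02 points (adjusted exact permutation p = 0.0253). For C57BL/6 dendritic cells it was -2.11 points (adjusted exact permutation p = 0.0485). The extra strainer for postnatal ventricles moved with these values and its part was not tested.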

How the results depend on the processing

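No paired analysis was possible because the labels give no replicate numbers to pair by, beyond the pairs by stage that the tests of atria against ventricles and of the strains used. Over all settings other than single stages left out, 150 of 208 values kept their direction and side of the threshold, 41 were no longer past it, 4 newly passed and 13 changed sign. The causes were not tested. Few members per stage limit the precision, and the pools are tied to stage in CD1 and to strain.

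Postnatal against embryonic share of immune cells: with at least 20 immune cells the difference was 1.52 points for T cells, 1.40 for CD1 neutrophils and -0.0502 for CD1 dendritic cells. Natural killer cells passed with zones averaged (3.29, adjusted exact permutation p = 0.0112) and without the E18 with P1 pool (2.92), where CD1 dendritic cells stood at -0.0846. Lymphocytes stood at -0.416 without the P2 to P9 pool. In the E9.5 to P3 pool alone, added after seeing the data, lymphocytes stood at -1.57 and dendritic cells at -0.0832.

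Share of all cells: with at least 4000 UMIs the difference was -0.0448 points for CD1 neutrophils, 0.101 for CD1 dendritic cells and 1.24 for C57BL/6 neutrophils. C57BL/6 dendritic cells passed with zones pooled (0.108). Without cardiomyocytes and blood cells T cells stood at 0.374, CD1 neutrophils at 0.290, CD1 dendritic cells at 0.0691 and C57BL/6 neutrophils at 1.55, none past the threshold. Without the P2 to P9 pool the CD1 values were 0.679 for lymphocytes, 0.0306 for T cells, 0.280 for B cells, 0.369 for natural killer cells, -0.0283 for neutrophils and 0.04997 for dendritic cells. In the E9.5 to P3 pool alone they were 0.871, 0.126, 0.186, 0.560, -0.0265 and 0.102.

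Ventricles minus atria: with at least 4000 UMIs T cells no longer passed (5.72 points), and with the highest doublet scores left out C57BL/6 neutrophils passed (12.47). With at least 20 immune cells lymphocytes (11.9), T cells (3.25) and natural killer cells (4.85) no longer passed. Nor did they without the P2 to P9 pool (7.86, 1.49 and 3.79), without the E9.5 to P3 pool (23.3, 7.71 and 7.12, with CD1 dendritic cells at -1.41) or in the E9.5 to P3 pool alone (9.09, 2.60 and 5.11).

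C57BL/6 against CD1: dendritic cells stood at 0.181 points without the E9.5 to P3 pool and 1.82 without the E10.5 to P4 pool, where neutrophils stood at 10.4 over 3 stages, too few to pass. Counting only neutrophils under 10% ribosomal gave 0.773 points. That limit kept 20 of 22 CD1 neutrophils and 32 of 175 C57BL/6 ones, so it removed mostly C57BL/6 cells.

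The period difference of the ventricular excess no longer passed with at least 4000 UMIs (16.1 points for lymphocytes, 7.31 for natural killer cells, -2.41 for C57BL/6 dendritic cells), without the E18 with P1 pool (20.2 and 9.33), without the P2 to P9 pool (12.1 and 4.40), in the E9.5 to P3 pool alone (10.9 and 9.19) or, for C57BL/6 dendritic cells, without the P5 to P9 pool (-1.70).

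With each stage left out in turn, some calls or directions changed. The share of immune cells after birth then differed by -3.34 to 1.52 points for T cells, 3.01 to 5.61 for B cells, 1.90 to 2.76 for natural killer cells, -1.06 to 1.40 for CD1 neutrophils and -0.0502 to 0.641 for CD1 dendritic cells. The share of all cells differed by 0.235 to 0.403 for CD1 neutrophils, 0.0676 to 0.110 for CD1 dendritic cells, 1.07 to 1.88 for C57BL/6 neutrophils and 0.0662 to 0.151 for C57BL/6 dendritic cells. The ventricular excess was 2.95 to 6.02 for T cells, -0.388 to 0.440 for CD1 dendritic cells and 7.45 to 14.1 for C57BL/6 neutrophils, and its period difference 16.7 to 23.8 for lymphocytes, 5.47 to 7.34 for natural killer cells and -2.38 to -1.77 for C57BL/6 dendritic cells. Dendritic cells between strains differed by -0.439 to 0.116.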
